A study of Mus musculus with 8 samples.

Results

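Resident microglia of the mouse brain were profiled 7 days after a focal ischemia, on 4 of the 8 one-colour Agilent arrays of the series. The members were taken by their label alone: the arrays whose cell type is resident microglia and whose sorting marker is GFP. The mice were C57BL/6 bone marrow chimeras, animals whose marrow was replaced by transplanted marrow. They underwent a 30 min occlusion of the middle cerebral artery (MCAo) and 7 days of reperfusion, and received no specific treatment. Each array held the sorted cells of 1 animal, and replicates 1 to 4 are animals A to D. All 4 animals were ischemic and all were chimeras, so no microglia of an unlesioned brain and no microglia of an animal without a transplant stand beside them. What drives GFP in these cells is not given in the sources used here, nor are the animals' age and sex.

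Microglia are the macrophages that live in the brain tissue itself. They arise early in development and renew themselves locally, and they depend on signals through the receptor Csf1r. At rest they sense their surroundings with thin processes, through purine receptors such as P2ry12 and through the chemokine receptor Cx3cr1. After injury they take up dead cells and myelin, and lysosomal, lipid and antigen-presenting genes are then known to change.

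Values are log2 signals relative to each array's 75th percentile, so that 0 is a fairly bright probe and 1 unit is a factor of 2. The share of probes well above background, by the scanner software's own flag, lay between 50.5 and 57.1% of 55681 probes per array. No gene spot was saturated, and the arrays correlated with each other at 0.937 to 0.964 (Pearson's r across the 11156 genes ranked below, which are not independent replicates). The arrays lay on 2 slides, replicates 1 and 2 on one and 3 and 4 on the other, so that slide and animals cannot be told apart. Per the labels the RNA was amplified by a global PCR before labelling. A brightness rank is therefore a rank of probes, each with its own affinity and amplification, and not of transcript copies. With 4 arrays, each mean and SD is known only roughly.

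Before any gene could be ranked, a property of the probes had to be dealt with. Of several probes of a gene the brightest was to stand for it, and under this rule all of the 15 brightest genes were represented by a probe holding a CA or GT dinucleotide run. The first 30 bases of 5 probes are shown for this reason, each 5′ to 3′ as the array files give it, with the dinucleotide run in capitals. Both Itgam probes are for the integrin that forms complement receptor 3, a receptor of myeloid cells, microglia among them. Snap25 is a protein of neuronal synapses. Dennd4a and Sp110 held the longest runs shown.
Itgam, bright probe: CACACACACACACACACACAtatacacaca
Snap25, only probe: CACACACACACACACACACAaagtggattt
Itgam, probe used here: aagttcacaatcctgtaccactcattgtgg
Dennd4a, bright probe: TGTGTGTGTGTGTGTGTGTGTGTGTGTGTG
Sp110, bright probe: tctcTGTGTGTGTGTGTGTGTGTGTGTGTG

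The bright Itgam probe (mm9 chr7:135261755-135261814, plus strand) and the Snap25 probe (mm9 chr2:136607709-136607768, plus strand) begin with the same CA run and had nearly the same signal, 8.88 ± 0.22 and 8.97 ± 0.27 (SD, n = 4). A stretch of each was shared by probes of 105 genes or loci. The other Itgam probes, without such a run, stood at 5.71 and 5.88. The bright Dennd4a and Sp110 probes reached 10.18 and 10.14, while the probes of these genes without shared stretches were at 2.12 or below for Dennd4a and at 3.87 or below for Sp110. Probes were therefore called repeat-like where a stretch of 16 bases, on either strand, occurred in probes of at least 3 genes or loci, or where a tandem repeat reached 10 bases. These were 3221 of the 55681 probes. Their median signal was 0.39, against -3.40 for all other probes, and the 122 probes with a GT run of 12 bases had a median of 8.39. All of the 50 brightest probes and 98 of the 100 brightest were repeat-like. This definition was chosen after the data had been seen. Ranks and percentiles below leave these probes out, and the closing section gives the effect of keeping them.

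**Figure D1:**
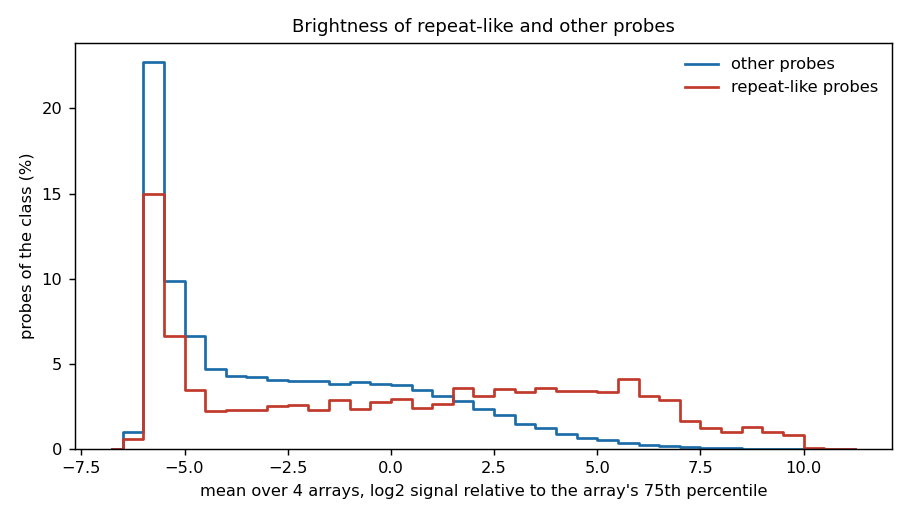
Distribution of probe brightness, as the mean log2 signal over the 4 microglia arrays relative to each array's 75th percentile (x axis), as a percentage of the probes in each class (y axis). Repeat-like probes extend past 10, and their median is 0.39 against -3.40 for other probes.

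Of 22455 named genes, 11724 (52.2%) had a probe well above background on all 4 arrays. Without repeat-like probes the count was 11156 of 21605 (51.6%), and these 11156 genes are the ones ranked. A gene's percentile is its place among them within each array, averaged over the 4 arrays. A further 14 genes that the lists below name, Snap25 among them, are not ranked, since all their probes are repeat-like.

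The label of the cells was checked first. The 4 given markers were well above background on all 4 arrays. P2ry12, the ADP receptor that guides microglial processes, had values of 7.03, 7.33, 6.77 and 7.56 on replicates 1 to 4 (mean 7.17 ± 0.35 SD, n = 4, rank 46 of 11156). Tmem119, a membrane protein used to tell microglia from other macrophages, had 7.18, 6.86, 6.67 and 7.04 (6.94 ± 0.22, rank 64). Cx3cr1, the fractalkine receptor, had 7.03, 7.16, 6.88 and 7.31 (7.10 ± 0.18, rank 48).
These receptors lay among the brightest genes on every array, and in each of them replicate 3 was the lowest under this scaling. With quantile normalization replicate 1 was instead the lowest in Cx3cr1. Sall1, a transcription factor that maintains microglial identity, had 4.06, 4.42, 3.90 and 4.35 (4.19 ± 0.25, rank 782, percentile 92.7 ± 1.52). It was dimmer than the receptors, and its array order was close to that of P2ry12, with replicates 2 and 4 above 1 and 3. The probes lie in build mm9 at chr3:59020598-59020657 (P2ry12), chr5:114243962-114244021 (Tmem119), chr9:119959018-119959077 (Cx3cr1) and chr8:91551278-91551337 (Sall1), all on the minus strand. None of these probes is repeat-like, and the first 30 bases of the P2ry12, Tmem119 and Sall1 probes, each the only probe of its gene, are given to show it.
P2ry12: tgcacattaagatggtagaggtttaaaagg
Tmem119: cagaactcttctctgtcagtccacgaagta
Sall1: cctcttgatcaagagcaggtatagtgttgg

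Among surface receptors the brightest was Fcer1g, the signalling chain shared by several Fc receptors, with values of 8.35, 7.80, 7.96 and 7.94 (mean 8.01 ± 0.24). Csf1r, the receptor for the microglial survival factors, followed with 7.44, 7.55, 7.62 and 7.87 (7.62 ± 0.19), and Fcgr3, an Fc receptor for IgG, with 7.40, 7.28, 7.29 and 7.59 (7.39 ± 0.14). The 10 brightest were completed by P2ry12, Cx3cr1, Tmem119, Selplg (6.69 ± 0.16), Fcrls (6.65 ± 0.21), Adgre1 (6.32 ± 0.35) and P2ry13 (6.30 ± 0.12), all SD over n = 4. Neighbours in this order from Csf1r to Tmem119 differed by less than the sum of their SDs. Selplg is the ligand of P-selectin, Fcrls an Fc receptor-like protein of microglia, Adgre1 the antigen F4/80, and P2ry13 a further ADP receptor. Of 455 names in the receptor class, 253 (55.6%) were well above background on all 4 arrays, close to the 52.2% of all genes.

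**Figure D2:**
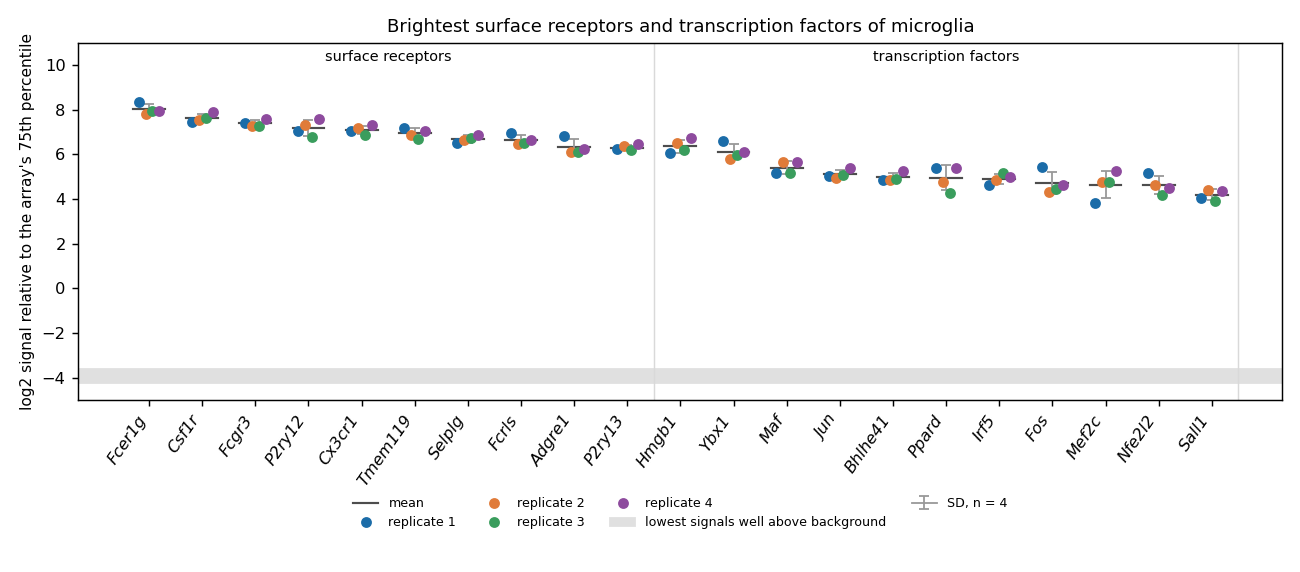
Log2 signal relative to the array's 75th percentile (y axis) of the 10 brightest surface receptors and the 10 brightest transcription factors of microglia, with Sall1 added. Points are the 4 arrays, bars the mean and SD, and the grey band spans the lowest signals well above background. P2ry12, Cx3cr1 and Tmem119 lie between 6.67 and 7.56 on every array, and Mef2c is lowest on replicate 1 at 3.80.

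Transcription factors were dimmer. Hmgb1, an abundant chromatin protein, led with 6.37 ± 0.29, and Ybx1, a DNA- and RNA-binding protein, followed with 6.12 ± 0.34. Both places depend on the probe taken, since the other probes stood at 0.75 and 2.12 for Hmgb1 and at -4.58 and -2.26 for Ybx1. The other probes of Maf (2.37) and Bhlhe41 (1.04), named next, were also lower than those used. Maf, a factor of mature tissue macrophages, had 5.16, 5.67, 5.15 and 5.65 (5.41 ± 0.29). The next were the AP-1 subunit Jun (5.11 ± 0.20), Bhlhe41 (4.97 ± 0.19), the fatty acid sensor Ppard (4.95 ± 0.56), Irf5 (4.89 ± 0.23), Fos (4.71 ± 0.51), Mef2c (4.65 ± 0.61) and the oxidant-response factor Nfe2l2 (4.62 ± 0.40). Mef2c, which restrains microglial activation, had 3.80, 4.78, 4.75 and 5.25, and replicate 1 stood below the others. Fos ran the other way, with 5.45 on replicate 1 and 4.31 to 4.65 on the others. The myeloid factors Irf8 (4.29 ± 0.25, rank 713) and Spi1, which encodes PU.1 (3.66 ± 0.18, rank 1165), had small spreads. Of 364 factor names, 244 (67.0%) were well above background on all 4 arrays.

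The brightest genes of all were led by the mitochondrial ATP synthase subunit ATP6 (8.86 ± 0.17), the class I gene H2-Q4 (8.61 ± 0.17) and Tpt1 (8.56 ± 0.30). Class I genes resemble each other closely, so H2-Q4, H2-Q7 (7.03 ± 0.29) and H2-D1 (6.77 ± 0.34) cannot be told apart with certainty. The array file places the ATP6 probe on chromosome 1 in mm9, not on the mitochondrial chromosome. Within the 15 brightest were the proteases Ctsd (8.44 ± 0.20) and Ctsz (8.43 ± 0.28), the pore-forming Mpeg1 (8.20 ± 0.06), the complement chain C1qb (8.19 ± 0.10), Apoe (8.16 ± 0.45), the lysosomal Laptm5 (7.98 ± 0.12) and Tyrobp (7.94 ± 0.20), the adaptor through which Trem2 signals. Mpeg1 varied little, with 8.20, 8.10, 8.25 and 8.23, whereas Apoe, the main lipid carrier of the brain, had 8.63, 7.55, 8.31 and 8.14, with replicate 2 the lowest.

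Enzymes were headed by lysosomal hydrolases. Ctsd and Ctsz led, and the 10 brightest also held Ctss (7.26 ± 0.24), which trims the class II invariant chain, and Ctsb (7.21 ± 0.43). Rnase4 (6.97 ± 0.08), the lysozyme Lyz2 (6.69 ± 0.24), Gapdh (6.60 ± 0.24), Sat1 (6.51 ± 0.21) and Ctsc (6.42 ± 0.19) were also among them. The other Ctsc probe was lower, at 2.77. Of the lysosome list, 42 of the 45 genes were well above background on all 4 arrays. Their median percentile was 96.4, beside 49.4 over all ranked genes. Lyz1, a near copy of Lyz2, read 5.34 ± 0.46, and the pair cannot be separated with certainty.

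Secreted proteins were led by C1qb and Apoe, then B2m (7.57 ± 0.14), the light chain of class I molecules, the cathepsin inhibitor Cst3 (7.30 ± 0.12), Olfml3 (7.29 ± 0.09), Grn (7.26 ± 0.42), Psap (7.08 ± 0.28), Spp1 (7.02 ± 0.55), C1qa (6.93 ± 0.22) and Lgals3bp (6.45 ± 0.51). Spp1, osteopontin, had 7.70, 6.38, 7.10 and 6.89, a wide spread for so bright a gene, with replicate 1 highest and replicate 2 lowest. Grn, progranulin, had the same pair at its ends, with 7.77 on replicate 1 and 6.74 on replicate 2. Olfml3, a secreted matrix protein of microglia, did not share this spread, with 7.36, 7.18, 7.25 and 7.38.

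The state of the cells was then described with 22 lists of genes, as counts well above background on all 4 arrays beside the 52.2% of all named genes. No test was run on the lists, which were written with earlier results of these data known. Their counts and percentiles are therefore descriptions only. All 37 genes of the homeostatic list were well above background on all 4 arrays, with a median percentile of 96.1. Of these, 25 lay at or above the 90th percentile, where 9.66% of all ranked genes lie. Sall3, a relative of Sall1, was the dimmest of them at -2.51 ± 0.90. All 32 genes of the damage-response list, which microglia raise around dying cells and plaques, were also well above background on all 4 arrays, with a median percentile of 96.7 over the 31 that could be ranked. They included Spp1, Gpnmb (6.93 ± 0.60), a glycoprotein of phagocytes, Trem2, the lipid-sensing receptor (5.34, 5.24, 5.44 and 5.08, mean 5.28 ± 0.15), Cst7 (5.13 ± 0.70), Lpl (4.91 ± 0.46) and Clec7a (3.61 ± 0.56). The integrin Itgax, also of this list, was its dimmest ranked member at -0.26 ± 0.20. Genes of both states were thus bright in the same arrays. The arrays measure pools of cells, so that fewer cells of a type and less RNA per cell cannot be told apart.

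Phagocytic receptors were well above background on all 4 arrays for 29 of 36 names, with a median percentile of 91.5. Beside Fcer1g, Fcgr3 and Tyrobp these were Itgb2 (6.28 ± 0.23), the partner of Itgam (5.88 ± 0.17), the bridging-molecule receptors Mertk (4.98 ± 0.13) and Axl (4.60 ± 0.39), and Lrp1 (4.37 ± 0.26). Tyro3, of the same kinase family as Mertk and Axl, was well above background on only 2 arrays. Its ligands were present too, with Pros1 at 5.85, 5.82, 5.73 and 5.71 (5.78 ± 0.07) and Gas6 at 3.74 ± 0.36. Of 26 complement names 18 were well above background on all 4 arrays. C1qb, C1qa and C1qc (5.49 ± 0.21), the chains of the recognition protein, were bright, C3ar1 stood at 5.01 ± 0.27, and C3 itself was lower, at 1.69 ± 0.54. The terminal component C6 was well above background on no array.

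Purine genes were split. P2ry12 and P2ry13 were among the brightest receptors, and Entpd1, the ectoenzyme that degrades extracellular ATP, stood at 3.71 ± 0.40. The ATP-gated channels P2rx7 (3.03 ± 0.18) and P2rx4 (2.75 ± 0.33) were measured on all arrays, and P2ry6, the UDP receptor, stood at 0.43 ± 0.32. In all, 15 of 26 purine names were well above background on all 4 arrays, a share of 57.7%, close to the background.

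Among chemoattractant receptors 13 of 31 were well above background on all 4 arrays, fewer than the share of all genes. Cx3cr1 was followed, among others, by C3ar1 and Cmklr1 (4.77 ± 0.19), while Ccr2, the receptor of blood monocytes, had 0.74, 0.95, 0.79 and 1.49 (0.99 ± 0.34, percentile 54.7 ± 5.80). Of 34 chemokines 20 (58.8%) were well above background on all 4 arrays, near the 52.2% of all named genes. The brightest were Ccl12 (5.79, 5.67, 5.44 and 5.90, mean 5.70 ± 0.20), Ccl6 (5.28 ± 0.21), Ccl3 (3.91 ± 0.48), Pf4 (3.64 ± 0.35) and Ccl4 (3.57 ± 0.42). Cx3cl1, the ligand of Cx3cr1, was well above background on only 1 array.

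Cytokines were measured at lower levels. Of 26 names 14 (53.8%) were well above background on all 4 arrays, close to the 52.2% of all named genes. No member reached the 90th percentile. The brightest were Il16, a chemoattractant of CD4+ cells (3.49 ± 0.28), Il18bp, which binds and blocks interleukin 18 (2.83 ± 0.76), and Csf1, a ligand of Csf1r (2.76 ± 0.36), whose place depends on the probe taken. Il1b had 2.06, 1.86, 1.86 and 2.05 (1.96 ± 0.11, percentile 70.2 ± 0.83), a narrow spread for its level. Tnf had 1.63, 0.70, 1.48 and 1.53 (1.34 ± 0.43), with replicate 2 apart. Il6, Il12a, Il12b, Ifnb1 and Ifng were not well above background on any array, and Il10 on only 1. Of the genes used to describe classical activation 15 of 20 were well above background on all 4 arrays, and of those of alternative activation 15 of 22, with median percentiles of 62.1 and 43.2. Nos2, the inducible nitric oxide synthase, was well above background on 3 arrays, at -2.55 to -2.41, and lower on replicate 1.

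Trophic factors other than Grn, Spp1 and Pros1 were dimmer. Of 34 names 19 (55.9%) were well above background on all 4 arrays. Igf1, a growth factor that microglia are known to make after injury, had 2.08, 1.03, 1.19 and 1.09 (1.35 ± 0.49), with replicate 1 above the others, which lay at 1.03 to 1.19. Tgfb1 stood at 0.46 ± 0.16, and its receptor Tgfbr1, on which the homeostatic state depends, at 4.36, 5.24, 5.16 and 5.67 (5.11 ± 0.54), with replicate 1 lowest. The other Tgfbr1 probes were lower, from 0.23 to 3.73. Bdnf, Gdnf and Ntf3 were not well above background on any array.

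Antigen presentation genes were well above background on all 4 arrays for 24 of 26 names, with a median percentile of 86.3. The class II chain H2-Aa had 5.60, 6.17, 6.19 and 6.04 (6.00 ± 0.28), Cd74, the invariant chain, 4.53 ± 0.28, and H2-Ab1 4.49 ± 0.10. The costimulatory molecules were lower, with Cd80 at 2.43 ± 0.33 and Cd86 at -1.96 ± 0.61. Interferon-response genes were well above background on all 4 arrays for 29 of 32 names. Bst2, a tether of viral particles (5.52 ± 0.50), Ifitm3 (4.77 ± 0.57), Rtp4 (4.48 ± 0.15) and Ifit3 (4.76, 3.54, 4.43 and 3.78, mean 4.13 ± 0.56) were the brightest. Ifit3 was higher on replicates 1 and 3 than on 2 and 4. This pair of arrays was the highest for 19.4% of all ranked genes. Pattern recognition genes were measured for 33 of 35 names, led by Unc93b1, which carries Toll-like receptors to endosomes (5.85 ± 0.41), and including Tlr7 (4.52 ± 0.39) and Nlrp3 (4.06 ± 0.17), whereas Tlr4 was lower, at 0.78 ± 0.30.

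Genes of lipid handling (33 of 37), iron and haem (20 of 22), oxidant production and defence (22 of 26), immediate early response (27 of 30), glycolysis (22 of 25) and the respiratory chain (32 of 32) were mostly well above background on all 4 arrays. The cholesterol exporters Abcg1 (5.32 ± 0.54) and Abca1 (5.16 ± 0.41), the iron carrier transferrin, Trf (7.43 ± 0.24), and the ferritin chains Ftl1 (6.46 ± 0.33) and Fth1 (5.22 ± 0.56) were bright. Plin2, the coat protein of lipid droplets, had 5.72, 2.40, 4.67 and 3.10, higher on replicates 1 and 3 than on 2 and 4. The fructose transporter Slc2a5, typical of microglia, stood at 4.91 ± 0.17, while the glucose transporter Slc2a1 stood at 0.63 ± 0.36. Of 37 cell cycle genes 31 were well above background on all 4 arrays, at a median percentile of 37.3. Ccnd1, cyclin D1 (5.74 ± 0.19), Hmmr (4.42 ± 0.12) and Mki67, the proliferation antigen (3.86, 3.83, 3.30 and 3.47, mean 3.62 ± 0.27), stood above the others. The place of Mki67 depends on the probe taken, since its other probe stood at 1.25. Aurkb, Cenpf and Ccne2 were not well above background on any array, and Cdk1 on only 2.

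**Figure D3:**
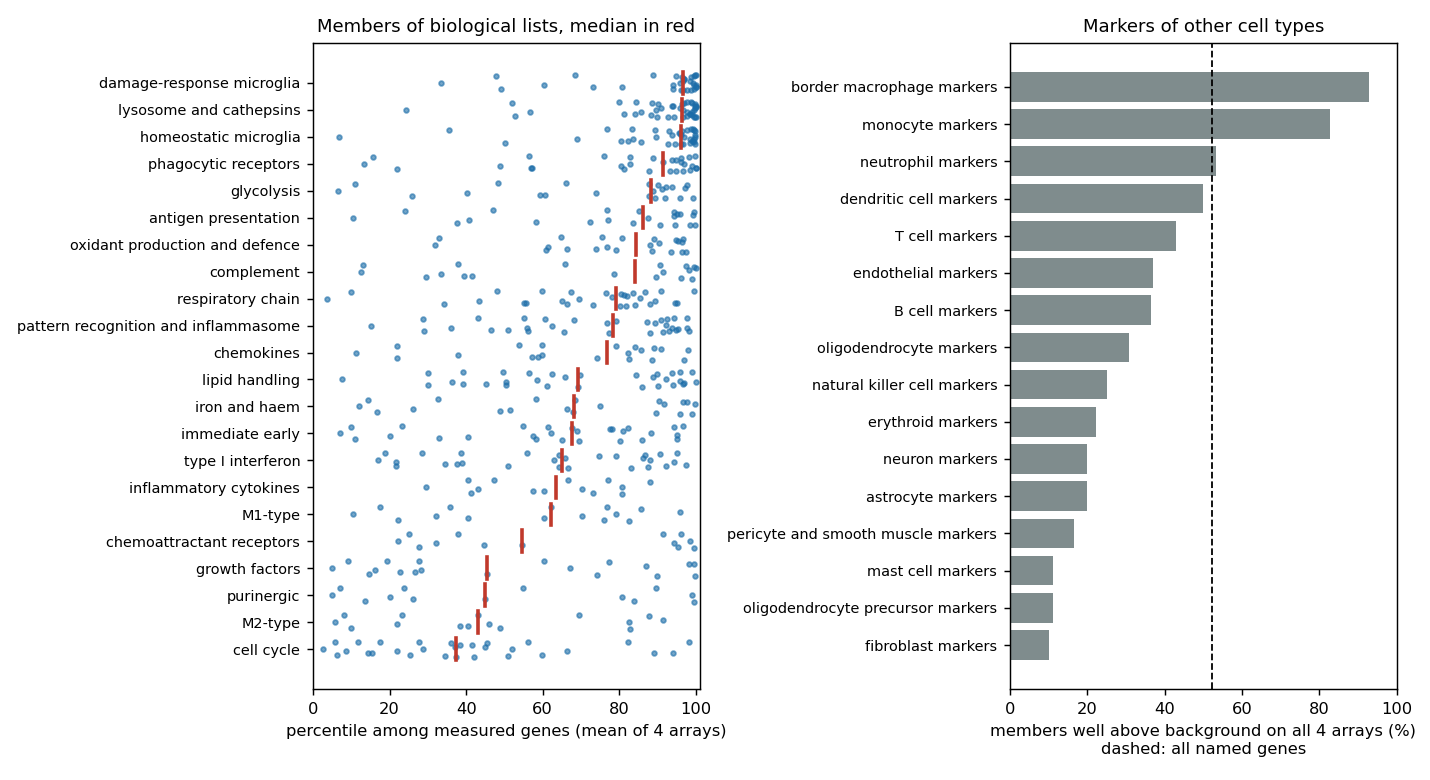
Left, percentile among the 11156 ranked genes (x axis, mean of the 4 arrays) of each ranked member of the 22 biological lists, with the median in red. Right, percentage of the markers of 16 other cell types well above background on all 4 arrays, with the 52.2% of all named genes dashed. The homeostatic, damage-response and lysosome lists have medians of 96.1 to 96.7, and the fibroblast, precursor and mast cell lists the lowest shares on the right.

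Markers of other cells were counted in the same way. Of neuron markers 3 of 15, of astrocyte markers 3 of 15, of oligodendrocyte markers 4 of 13 and of oligodendrocyte precursor markers 1 of 9 were well above background on all 4 arrays. Stmn2 and Slc17a7 of neurons, Sox9 of astrocytes and Mog of oligodendrocytes were not well above background on any array, while Mbp, a myelin protein, had 2.12, 1.46, 1.04 and 1.94. Slc1a3, a glutamate transporter of astrocytes, was at 3.64 ± 0.11. Endothelial markers (7 of 19), pericyte markers (2 of 12) and fibroblast markers (1 of 10) were also below the share of all genes. The precursor count was 2 without replicate 2, and the fibroblast count was 2 without replicate 1. Cdh5, Esam and Pdgfrb were not well above background on any array.
Myeloid lists were higher. Of monocyte markers 19 of 23 and of border macrophage markers 13 of 14 were well above background on all 4 arrays, and these lists hold genes that microglia themselves express, such as Maf. The summed linear signal of the monocyte list, relative to each array's 75th percentile, ranged from 90.6 on replicate 2 to 190.7 on replicate 1, and that of the border macrophage list from 128.8 to 188.9. Mrc1, the mannose receptor of border macrophages, had 3.35, 3.30, 2.05 and 3.14, and Lyve1 was well above background on 3 arrays.
Among neutrophil markers 8 of 15 (53.3%) were well above background on all 4 arrays, close to the 52.2% of all named genes. S100a8 had 1.37, 2.63, 2.41 and 3.40, and S100a9 had 2.13, 3.11, 2.14 and 4.01, with replicate 4 the highest in both. Ngp, a granule protein, had 0.92, 1.49, -6.24 and 2.93 and was not well above background on replicate 3. T cell (6 of 14), natural killer (3 of 12), B cell (4 of 11), dendritic (7 of 14), erythroid (2 of 9) and mast cell markers (1 of 9) were below the share of all genes, and Cd3d and Kit were not well above background on any array. Hba-a1, a haemoglobin chain, was well above background only on replicate 4.

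The spread between arrays holds that between animals and that of sorting, amplification and hybridization, since each animal had 1 array. The median SD of a gene over the 4 arrays was 0.359 (quartiles 0.241 and 0.531). It fell with brightness, from 0.503 in the 2789 dimmest genes to 0.275 in the 2789 brightest. For 222 probes with 10 spots on each array the median SD between spots of 1 array was 0.0832, against 0.351 between arrays, so that the difference between arrays was larger than that between spots. Different probes of 1 gene differed more than either. Over 3097 genes with at least 2 such probes, the brightest and dimmest were a median of 1.44 apart. The steadiest genes were Krtap4-1, Gsdmd, Vti1a, Gm5294 and Cdan1, each with an SD under 0.03, of which Gsdmd, the pore protein of inflammatory cell death, stood at 4.35, 4.36, 4.37 and 4.39.

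**Figure D4:**
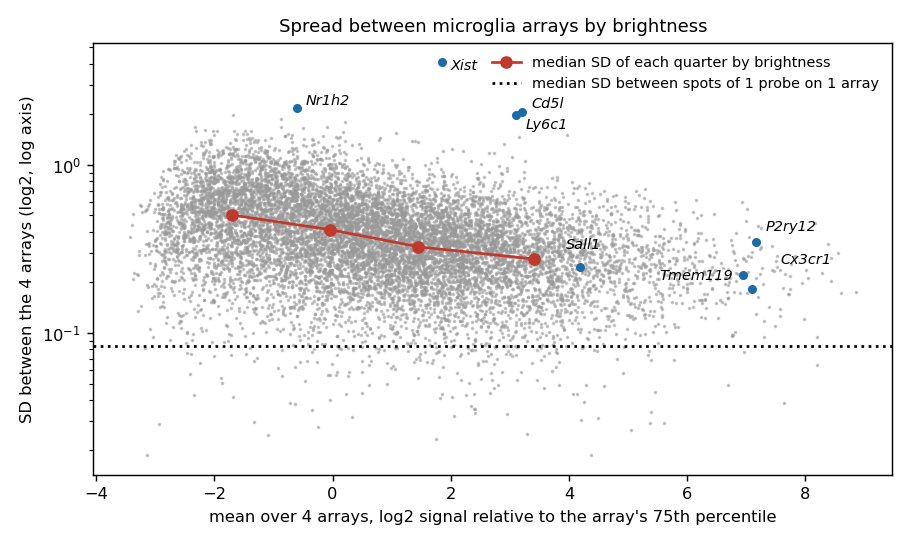
SD between the 4 microglia arrays (y axis, log axis, log2 units) against the mean log2 signal relative to the 75th percentile (x axis) for the 11156 ranked genes. The median SD falls from 0.503 to 0.275 from the dimmest to the brightest genes, the dotted line at 0.0832 is the spread between spots, and Xist lies highest with an SD of 4.07.

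Between the slides, 0 of 11724 genes (0%) passed limma's test at an adjusted p of 0.05, and 443 (3.78%) had an unadjusted p under 0.05. This test had 2 arrays on each side. An SD of at least 1 was reached by 338 of 11156 genes (3.03%). The widest spread was that of Xist, the RNA that silences 1 X chromosome in female cells, with 4.69, 2.06, -3.98 and 4.61. The Y-linked helicase gene Ddx3y had -1.30, 1.23, 1.56 and -0.61, with its higher values on replicates 2 and 3. Kdm5d, also Y-linked and looked up after these values were seen, had -2.06, 0.34, 0.32 and -1.34, in the same arrangement, while Eif2s3y, looked up with it, had -0.39, -0.97, -0.07 and -2.44. Replicates 1 and 4 were thus high in Xist and low in Ddx3y and Kdm5d, replicate 3 the reverse, and replicate 2 had values above 1 for both Xist and Ddx3y.

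The other genes of widest spread included Cd5l, a secreted protein of tissue macrophages (6.16, 1.94, 3.11 and 1.65), Ly6c1 (4.59, 0.65, 4.85 and 2.34), the coagulation factor gene F7 (1.94, -1.80, 1.49 and -0.78) and Arg1, arginase 1 (-0.43, -2.31, 1.51 and 0.88). Cd5l was highest on replicate 1, Ly6c1 and F7 were high on replicates 1 and 3, and Arg1 was high on replicates 3 and 4. Nr1h2, an oxysterol receptor (-1.54, 2.63, -1.48 and -2.03), and Tceal7 (-2.38, 1.25, -2.56 and -3.06) were high on replicate 2 alone, and Map3k6, a kinase (-3.18, -3.14, -3.17 and 0.19), on replicate 4 alone. Lrrc20 and Trmt10a completed the 10. In the neutrophil list Mmp8 (4.54, 1.36, 4.13 and 2.59) and Ly6g (2.23, -0.98, 1.66 and 0.29) were likewise high on replicates 1 and 3, while S100a8 and S100a9 were not. Replicates 1 and 3 were the highest pair for 94 of the 338 genes (27.8%), against 19.4% of all ranked genes. These arrays lay on different slides. Ly6c1 is itself in the endothelial list, whose summed linear signal was 39.9, 14.7, 42.0 and 17.0 on replicates 1 to 4, and the monocyte sum was 190.7, 90.6, 176.9 and 143.6. Both sums were highest on replicates 1 and 3. On these arrays most of the endothelial sum was Ly6c1, a gene picked here for its spread. The endothelial sum is therefore not separate from Ly6c1. Of the 7 ranked endothelial markers, 5 were highest on replicate 1 and 1 on replicate 3. The part of these sums in the pattern was not tested.

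**Figure D5:**
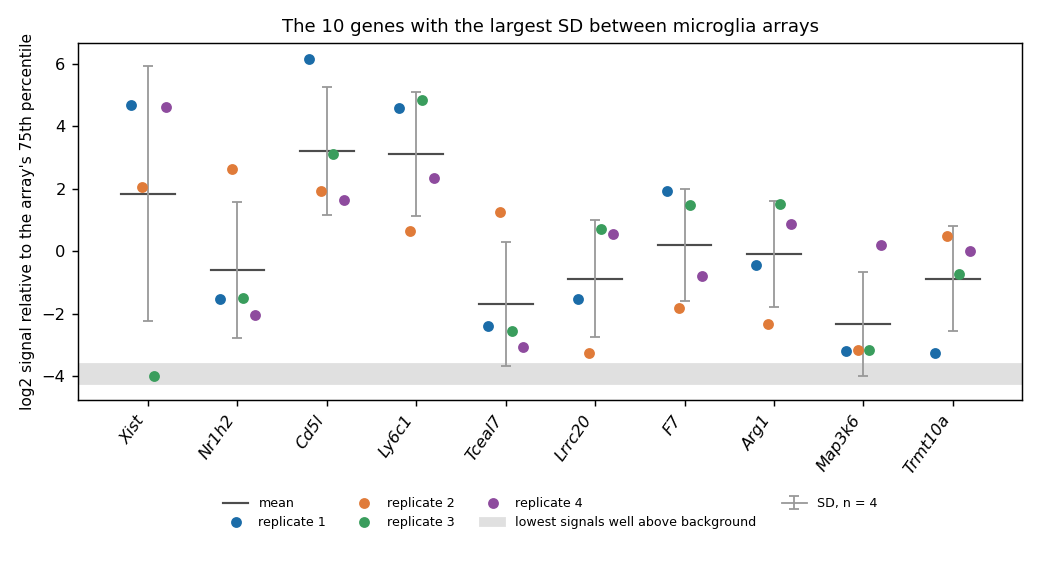
Log2 signal relative to the array's 75th percentile (y axis) of the 10 ranked genes with the largest SD between microglia arrays (x axis). Points are the 4 arrays, bars the mean and SD (n = 4), and the grey band the lowest signals well above background. Xist is at -3.98 on replicate 3, Cd5l highest on replicate 1, and Nr1h2 and Tceal7 are highest on replicate 2.

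The lists also differed in which array was highest. This was looked at after the values had been seen, and is a description of 4 arrays in which the genes of a list share their RNA. Of all ranked genes, 37.9% had their highest value on replicate 1. In the damage-response list 25 of 31 ranked members did, and in the lysosome list 36 of 42, with 7 genes in both lists. The same held for most members of many other lists, with 21 of 30 in the respiratory chain and 12 of 18 in complement. It also held for 18 of 28 interferon-response genes, 19 of 31 in lipid handling and 12 of 20 chemokines. Further such lists were border macrophage (9 of 13), oxidant (13 of 22), phagocytic (17 of 29), cell cycle (17 of 30), iron (11 of 20) and growth factor genes (10 of 19). The 1116 brightest genes had 50.4% highest on replicate 1, and the 2789 brightest had 46.6%. At or above the 90th percentile lay 23 damage-response and 29 lysosome members. Only 4 respiratory chain, 8 complement, 5 interferon-response, 10 lipid handling and 3 chemokine members did. The share of 50.4% is thus a comparison mainly for the damage-response and lysosome lists. Replicate 2 was the lowest for 20 of the 31 damage-response and 28 of the 42 lysosome members, against 27.8% of all ranked genes and 447 of the 1116 brightest. It was also the lowest for 16 of 19 ranked monocyte markers. Under quantile normalization replicate 1 was still the highest for 21 and 28 of them, where 34.4% of the 1116 brightest genes were, and for 19 of the 30 respiratory chain members. The lowest array was then most often replicate 4, for 18 and 21 members, against 2592 of all 11156 ranked genes and 227 of the 1116 brightest.

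The homeostatic list had another order. Replicate 4 was the highest for 18 of its 37 members, against 24.5% of all ranked genes and 30.1% of the 1116 brightest. Replicate 3 was the lowest for 20, against 25.7% of all ranked genes and 318 of the 1116 brightest. Replicate 1 was the highest for 11, replicate 2 for 6 and replicate 3 for 2. Under quantile normalization replicate 2 took the highest place for 20 members, against 2555 of all 11156 ranked genes and 278 of the 1116 brightest. Replicate 1 took it for 4. Replicates 1 and 3 were then the lowest for 17 and 16 members, against 3171 and 2812 of all ranked genes and 375 and 332 of the 1116 brightest. The order within the homeostatic list thus changed with the scaling. Antigen presentation genes were highest on replicate 3 for 12 of 22 ranked members, against 19.2% of all ranked genes, and for 12 under quantile normalization. The summed signals of the monocyte and border macrophage lists were also highest on replicate 1, and their part in this order was not tested.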

How the data were processed

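The deposited one-colour (Cy3) intensity files were written by Agilent Feature Extraction 10.7.3.1, per the file headers, on a design built on mm9. The authors' processed intensity is background-subtracted and detrended within the array, per the file headers. The authors also deposited a table of log2 values. Its column medians, 4.605 and 4.606, were nearly equal and its columns correlated with the scanner values at 0.998 or above. How it was normalized is not given in the sources used here, and it served as an alternative only.

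From the processed intensity, log2 values were taken, spots with outlier flags and control spots were left out, spots of a probe were averaged, and values were set relative to the 75th percentile of their array. A probe counted as well above background where at least 0.5 of its spots had that flag. A gene was represented by its brightest probe so flagged on all 4 arrays. Of 55681 probes, 27587 were named through a RefSeq accession, 3502 through the symbol and 393 through a synonym. The other 24199 had no name here. Probe sequences and mm9 positions are those of the array files, and exons and UTRs were not assigned.

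Slides were compared with limma 3.58.1 (R 4.3.3, lmFit and eBayes, two-sided, Benjamini-Hochberg adjustment), tested first on simulated data. Counts, ranks and SDs were made with Python 3.11.15. The members and the gene lists were chosen with earlier results of these data known. Genes named by rule were the 4 given markers, the 15 brightest, the 10 brightest of each class, the 4 brightest and the dimmest of each biological list, the brightest of each marker list, the 10 of largest and 5 of smallest SD, and a set of landmark genes. All other genes named were chosen after their values were seen. Classes are symbol patterns written for this purpose and are incomplete. The 4 macrophage arrays were not used. Some genes that the rule takes are not reported here. Alternatives changed the background correction, scaling, probe rule, detection filter, outlier flags and number of arrays.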

Additional observations from a re-analysis of the deposited data

Results flagged for a closer look

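Of 212 sets of 4 values looked at (named genes and list medians), 18 (8.49%) had 1 array far from the other 3. Chance gives about 1 in 20 for independent values not picked by their spread. These sets share the same 4 arrays, and some genes were picked for a large spread. No excess over chance can therefore be read from the count. Values are log2 signals relative to each array's 75th percentile.

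Replicate 1 stood highest for Abca1 (5.78), Igf1 (2.08), the matrix gene Dcn (-0.20) and the mast cell protease Tpsb2 (0.62), and for the medians of lipid handling (2.32, the others 1.43 to 1.58) and border macrophage markers (3.14, the others 1.78 to 1.93). It stood lowest for the potassium channel Kcnj2 (0.63, the others 1.74 to 1.80) and for Nos2 (-3.37). Replicate 2 stood highest for Nr1h2 (2.63) and Tceal7 (1.25), and lowest for Tnf (0.70) and Hmmr (4.24, the others 4.46 to 4.49). Replicate 3 stood lowest for Mrc1 (2.05) and highest for the median of T cell markers (-2.69). Replicate 4 stood highest for Bhlhe41 (5.24), cytochrome c, Cycs (5.01), Map3k6 (0.19) and the median of the homeostatic list (5.24, the others 4.84 to 4.86).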

How the results depend on the processing

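No paired analysis was possible because the arrays form 1 group and no groups were compared. The number of genes well above background ran from 11156 (repeat-like probes left out) to 15132 (at least 1 of 4 arrays), against 11724, and from 11775 to 12133 when 1 array was left out. The median SD over the 11724 genes of the brightest-probe rule with repeat-like probes kept, 0.349 (0.359 over the 11156 ranked genes), ran from 0.275 (normexp) to 0.419 (at least 1 of 4 arrays), within a factor of 1.5, and was 0.282 without replicate 1. Limma called 0 genes between slides under every alternative run. With at least 1 of 4 arrays required, the counts rose to 22 for chemoattractant receptors, 10 for neuron, 11 for astrocyte, 8 for oligodendrocyte, 5 for precursor, 11 for endothelial, 5 for pericyte, 6 for fibroblast, 13 for neutrophil, 10 for T cell, 8 for natural killer, 7 for B cell, 11 for dendritic and 2 for mast cell markers. With 3 of 4 required, precursor and fibroblast counts were 2 each, and with 1 array left out they ran from 1 to 2, reaching 2 without replicate 2 and without replicate 1. The other 282 counts and SDs computed under an alternative stayed within a factor of 1.5. Of 173 named genes with a percentile, 11 moved by over 10 points under the median over probes (Csf1 by 66.9) and 52 with no filter on dim genes (Ndufv1 by 43.0), and 40 with at least 1 of 4 arrays required (Ccl19 by 18.5). Leaving out replicate 3 moved Xist by 21.9, and leaving out replicate 2 moved Nr1h2 by 15.5. With repeat-like probes kept they moved by at most 13.1 (Cxcl11). The count of homeostatic members highest on replicate 1 fell from 11 to 4 under quantile normalization and in the authors' deposited table, and that of alternative activation genes from 4 to 1. The cause was not tested. Signal over background limits the dim genes, and with 4 arrays an SD is itself imprecise.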
